A study of Homo sapiens with 2 samples.

Results

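The genes described here are 10 members of the Wnt pathway and the Dickkopf family, namely the Dickkopf genes DKK1 and DKK3, the ligand gene WNT5B, the co-receptor genes LRP5 and LRP6, the destruction complex genes APC and AXIN2, CTNNB1 (beta-catenin) and the DNA-binding factors TCF7L1 and TCF7L2. They were picked by symbol from a table of 58698 genes, and all 10 were found, each with a single entry. Total RNA was sequenced from 2 cultures of MIA PaCa-2, an established human pancreatic cancer cell line. The first, sgTPST2, carries a guide against TPST2, a Golgi enzyme that attaches sulfate to tyrosines of secreted and membrane proteins, and its genotype label is TPST2 KD. The second, sgGFP, carries a guide against GFP, a jellyfish protein that human cells lack, and its genotype label is WT. Both cultures are of the same parental line, and the sources used here do not state whether either is a clone or a pool of cells, or whether the guide cuts or represses. Each group is 1 library, so no difference below has a replicate check and no test was made.

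The deposited values carry no unit and are read here as FPKM, which counts fragments per kilobase of transcript and corrects for the size of the library. The columns have nearly equal sums, so a scaling to a shared total is possible. In sgTPST2, 1 FPKM stood for about 47.8 fragments per kb of transcript, and in sgGFP for about 42.0. Ranges in brackets after a level are exact Poisson 95% intervals for 1 kb of transcript, and ranges after a ratio are exact (Clopper-Pearson) 95% intervals for the same length. They cover counting error only. Differences are log2((sgTPST2 + 1)/(sgGFP + 1)), which understates the change of genes near or under 1 FPKM, so the plain ratio sgTPST2/sgGFP is given beside them. TPST2 stood at 1.92 FPKM (1.55 to 2.36) in sgTPST2 and at 8.46 FPKM (7.62 to 9.40) in sgGFP. Of 5 epithelial markers, the 3 keratins KRT8, KRT18 and KRT19 passed 1 FPKM, EPCAM was listed at 0 in both libraries, and the summed level of the 5 was 139.8 FPKM in sgTPST2 and 1282 FPKM in sgGFP. All 6 acinar and islet markers were listed at 0 in both. Leukocyte markers summed to 3.28 and 6.09 FPKM, and endothelial markers to 0.282 and 3.10 FPKM, in sgTPST2 and sgGFP in that order. Fibroblast markers summed to 15.6 FPKM in sgTPST2 and 47.6 FPKM in sgGFP, with DCN and LUM listed at 0 in both. The part of these marker differences in the values below was not tested. In bulk RNA, fewer cells of a type and less RNA per cell cannot be told apart.

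In the absence of a Wnt signal, a complex built on APC and the AXIN scaffolds marks beta-catenin for destruction. A Wnt ligand that binds a Frizzled receptor together with LRP5 or LRP6 recruits AXIN to the membrane, beta-catenin accumulates, and it joins TCF/LEF factors on DNA to switch on target genes. DKK1, itself a target of the pathway in many cells, is secreted and blocks LRP5 and LRP6, which makes it a feedback inhibitor.

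TCF/LEF factors bind DNA words that start with CTTTG, and the promoter of DKK1 is shown because DKK1 is both a well-expressed member and a known target. RefSeq promoter windows (GRCh38.p14) were matched by symbol for 7 of the 10 genes, with 11 windows in all; AXIN2, DKK3 and LRP6 were not matched. The 250 bases before each start were searched on both strands for the core CTTTG followed by AA, AT, TA or TT, which makes 4 words of equal length. Of 35116 such windows in the table, 11.96% held at least 1 of these words and 1.21% held 2 or more. Among the 11 windows, 2 held a word: the DKK1 window, with 2, and the second of the 3 TCF7L2 windows, with 1. In DKK1 the words lie at bases -95 to -89 and -76 to -70 from the start. These 2 do not overlap. In TCF7L2 the word lies at bases -133 to -127 from a start inside the gene. A match describes the letters and is not evidence of binding. The sequences are on the plus strand, which is the strand of both genes, and capitals mark the words found, in DKK1 at chr10:52314031-52314280 and in a 60-base stretch of TCF7L2 at chr10:113126474-113126533.
DKK1: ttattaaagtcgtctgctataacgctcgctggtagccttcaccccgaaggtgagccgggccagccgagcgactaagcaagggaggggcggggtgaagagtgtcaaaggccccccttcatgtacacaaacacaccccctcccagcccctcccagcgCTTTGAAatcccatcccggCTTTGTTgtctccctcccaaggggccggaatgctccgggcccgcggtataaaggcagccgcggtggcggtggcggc
TCF7L2: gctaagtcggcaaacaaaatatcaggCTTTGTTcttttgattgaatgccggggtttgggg

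DKK1, LRP6 and WNT5B had the largest log2 differences among these genes, and all of them were lower in sgTPST2. Of the 10 genes, 7 reached 1 FPKM in at least a single library, and 3 of those 7, the genes just named, were at least 1.5-fold lower in sgTPST2 on the log2(FPKM + 1) scale, where 6.94% of all 13420 genes past the same filter were. None of the 7 was at least 1.5-fold higher, against 4.41% of all genes. WNT5B passed the filter only through sgGFP, the library where it was higher, and TCF7L2 only through sgTPST2. The median difference of the 7 was -0.52, beside 0.00 over all genes. LRP6 and WNT5B lie on the short arm of chromosome 12 (12p), where lower levels were general, and with those genes left out 1 of 5 was 1.5-fold lower and the median was -0.14. The authors' deposited table tested 8 of the 10, and 0 passed its q threshold of 0.05, which 0.517% of 18574 tested genes did. In the authors' deposited table LRP6 has p = 0.00205 and q = 0.244, and WNT5B has p = 0.0487 and q = 0.9997.

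**Figure D1:**
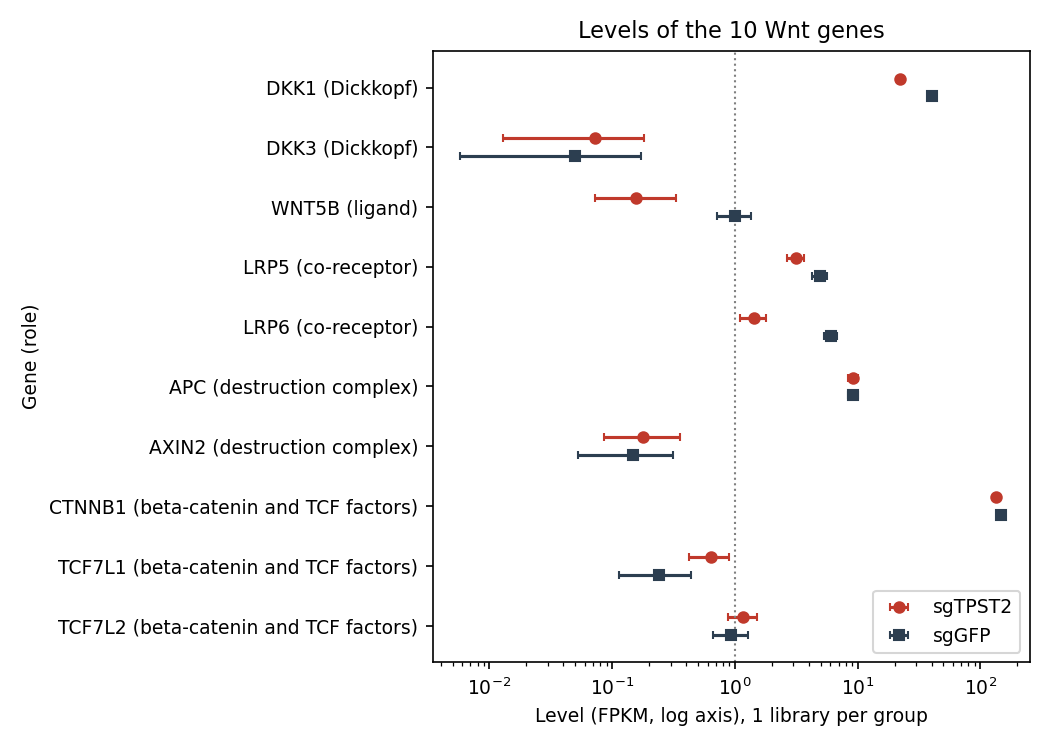
Level of each of the 10 genes in FPKM on a log axis, with sgTPST2 (red circles) above sgGFP (dark squares); each point is 1 library, bars are exact Poisson 95% intervals for 1 kb of transcript and the dotted line is 1 FPKM. The intervals are apart for DKK1, WNT5B, LRP5, LRP6 and CTNNB1, and overlap for the other 5 genes. They cover counting error only, and the share of all genes with intervals apart was not counted.

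The 10 genes differed widely in level. CTNNB1 was the highest in both libraries, followed by DKK1 and then APC, and the intervals of these 3 genes did not overlap each other or those of any lower gene. In sgTPST2 the order went on with LRP5, LRP6, TCF7L2, TCF7L1, AXIN2, WNT5B and DKK3. The intervals of LRP6 and TCF7L2 and of TCF7L2 and TCF7L1 overlapped there, and those of AXIN2, WNT5B and DKK3 all overlapped each other. In sgGFP the order after APC was LRP6, LRP5, WNT5B, TCF7L2, TCF7L1, AXIN2 and DKK3. There LRP6 overlapped LRP5, WNT5B overlapped TCF7L2, and TCF7L1, AXIN2 and DKK3 all overlapped each other. The co-receptors thus stood in opposite orders in the libraries, with separate intervals in sgTPST2 alone.

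DKK1 (ENSG00000107984.9, chromosome 10, 52314296 to 52318042, GRCh38), whose promoter is printed above, was the second most abundant of the 10 and was lower in sgTPST2. It stood at 22.2 FPKM (20.9 to 23.6) in sgTPST2 and at 40.3 FPKM (38.4 to 42.3) in sgGFP. The ratio was 0.551 (0.510 to 0.596) and the log2 difference -0.83, and the intervals of the levels did not overlap. Of the 13420 genes past the filter, 544 (with DKK1 itself, as in later counts of this kind over all genes) had a difference as low or lower. In the authors' deposited table DKK1 has p = 0.267 and q = 0.9997. The antisense gene PRKG1-AS1 overlaps the start of DKK1 on the opposite strand. It stood at 0.360 FPKM in sgTPST2 and 0.351 FPKM in sgGFP, far under DKK1 in both.

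DKK3 (ENSG00000050165.17, chromosome 11, 11963106 to 12009769), a divergent Dickkopf that does not bind LRP6 as DKK1 does, was close to absent. It stood at 0.0723 FPKM (0.0129 to 0.183) in sgTPST2 and 0.0494 FPKM (0.00576 to 0.172) in sgGFP, which is 3 and 2 fragments per kb of transcript. The ratio of 1.46 has an interval of 0.151 to 15.8, so a difference of several fold either way was not detectable at this depth. DKK2 and DKK4 were listed at 0 in both libraries, so nearly all Dickkopf RNA in these cells was DKK1, with a summed level of the 4 genes of 22.3 FPKM in sgTPST2 and 40.4 FPKM in sgGFP. KREMEN2, a membrane receptor that works with DKK1 to clear LRP6 from the cell surface, was lower too, at 1.66 FPKM (1.33 to 2.08) in sgTPST2 and 3.35 FPKM (2.82 to 3.96) in sgGFP. Its relative KREMEN1 was at 3.72 FPKM (3.19 to 4.31) in sgTPST2 and 4.53 FPKM (3.90 to 5.21) in sgGFP, with overlapping intervals. The 5 secreted Frizzled-related proteins, another class of Wnt antagonists, summed to 0.0574 FPKM in sgTPST2 and 0.181 FPKM in sgGFP.

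WNT5B (ENSG00000111186.12, chromosome 12, 1529891 to 1647243), a ligand best known for beta-catenin-independent signalling, stood at 0.158 FPKM (0.0722 to 0.329) in sgTPST2 and at 1.01 FPKM (0.720 to 1.35) in sgGFP. The ratio was 0.157 (0.0678 to 0.361), the lowest ratio of the 10 genes, and rests on 8 and 42 fragments per kb of transcript. On the log2(FPKM + 1) scale the difference was -0.79. The low level makes the size of this difference depend on the pseudocount, with -2.10 when 0.1 is added in place of 1. FBXL14, a ubiquitin ligase gene that lies inside WNT5B on the opposite strand, stood at 3.61 FPKM in sgTPST2 and 6.18 FPKM in sgGFP. Whether reads of FBXL14 entered the WNT5B values was not tested.

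Few Wnt ligands were expressed at all. Of 19 Wnt genes, 2 reached 1 FPKM in at least a single library, WNT5B and WNT4, and 5 were listed at 0 in both. WNT4 was lower in sgTPST2, at 0.491 FPKM (0.305 to 0.721) against 1.43 FPKM (1.09 to 1.84) in sgGFP. The 19 ligands summed to 2.21 FPKM in sgTPST2 and 4.10 FPKM in sgGFP. WLS, the carrier that brings Wnt ligands to the cell surface, had the largest difference of the 127 Wnt pathway genes examined. It stood at 1.26 FPKM (0.957 to 1.61) in sgTPST2 and 10.3 FPKM (9.31 to 11.3) in sgGFP, a log2 difference of -2.32, and 83 of the 13420 genes past the filter had a difference as low or lower. The authors' deposited table gives WLS p = 0.0441 and q = 0.9997. PORCN, the enzyme that attaches the lipid Wnt ligands need, was at 12.6 FPKM in sgTPST2 and 15.7 FPKM in sgGFP, within 1.5-fold.

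LRP6 (ENSG00000070018.8, chromosome 12, 12116025 to 12267012), the co-receptor that is phosphorylated when Wnt binds and then holds AXIN at the membrane, had the largest log2 difference of the 10 genes. It stood at 1.42 FPKM (1.10 to 1.80) in sgTPST2 and at 6.02 FPKM (5.30 to 6.81) in sgGFP. The ratio was 0.236 (0.178 to 0.310), a 4.23-fold lower level, and the log2 difference was -1.53. With a pseudocount of 0.1 it was -2.01. Of the 13420 genes past the filter, 176 had a difference as low or lower. BCL2L14, which overlaps LRP6 on the opposite strand, was listed at 0 in both libraries.

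LRP5 (ENSG00000162337.11, chromosome 11, 68312609 to 68449275), the closely related co-receptor, differed less and in the same direction. It stood at 3.13 FPKM (2.65 to 3.68) in sgTPST2 and at 4.93 FPKM (4.28 to 5.65) in sgGFP, with a ratio of 0.634 (0.512 to 0.789). Its log2 difference of -0.52 fell short of 1.5-fold on the scale used for counts, and reached it with a pseudocount of 0.1. The intervals of the ratios of LRP6 and LRP5 did not overlap. Together the co-receptors stood at 4.55 FPKM in sgTPST2 and 10.9 FPKM in sgGFP, and LRP6 made up 31.3% of that sum in sgTPST2 and 55.0% in sgGFP. In the authors' deposited table LRP5 has p = 0.134 and q = 0.9997.

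The Frizzled receptors, which bind Wnt ligands beside LRP5 and LRP6, went both ways. Of 10 Frizzled genes 8 passed 1 FPKM, and their summed level was 31.4 FPKM in sgTPST2 and 37.3 FPKM in sgGFP. FZD6, the most abundant, was at 9.35 FPKM (8.50 to 10.2) in sgTPST2 and 15.7 FPKM (14.5 to 16.9) in sgGFP. FZD8 was at 3.15 FPKM in sgTPST2 and 5.87 FPKM in sgGFP, and FZD3 at 1.13 and 3.02 FPKM in the same order, and all 3 were at least 1.5-fold lower. FZD2 was higher, at 7.34 FPKM (6.59 to 8.14) in sgTPST2 and 4.13 FPKM (3.55 to 4.80) in sgGFP. FZD7 was higher by less, at 6.69 FPKM (5.98 to 7.46) in sgTPST2 and 4.34 FPKM (3.75 to 5.03) in sgGFP. FZD1 was at 1.33 FPKM (1.03 to 1.71) in sgTPST2 and 0.849 FPKM (0.600 to 1.19) in sgGFP, with overlapping intervals. On the log2(FPKM + 1) scale FZD7 and FZD1 were within 1.5-fold, at 0.52 and 0.34. On the plain ratio, 3 of the 8 (FZD1, FZD2 and FZD7) were at least 1.5-fold higher and 3 were lower. The share of all genes 1.5-fold apart on the plain ratio was not counted. FZD1 passed the filter only through sgTPST2. PTK7, a kinase-dead co-receptor linked to planar cell polarity, was higher as well, at 10.4 FPKM (9.49 to 11.3) in sgTPST2 and 5.50 FPKM (4.81 to 6.25) in sgGFP. RYK, the most abundant receptor of the list, was within 1.5-fold, at 88.1 FPKM in sgTPST2 and 85.8 FPKM in sgGFP.

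LRP6 and WNT5B share a chromosome arm whose genes were mostly lower. Of the 140 protein-coding genes of 12p at 1 FPKM or more (those ending by 35 Mb), 83.6% were at least 1.5-fold lower in sgTPST2. Without LRP6 and WNT5B, the other 138 had a median difference of -0.86 and a median ratio of 0.519, with the middle 50% of ratios between 0.439 and 0.596, and 133 of them were below 0. LRP6 was lower than most of its arm. Its difference less the arm's median was -0.68, 9 of the 138 had a difference as low or lower, and its ratio interval (0.178 to 0.310) lay under the arm's middle 50%. WNT5B lay near the arm's median on the log2(FPKM + 1) scale, 0.07 above it, with 80 of the 138 as low or lower. On the plain ratio, which does not compress low levels, 4 of the 138 were as low as WNT5B, and its interval of 0.0678 to 0.361 lay under the arm's middle 50%. What the arm as a whole contributes to either value cannot be told apart from a change of the gene itself in 2 libraries.

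**Figure D2:**
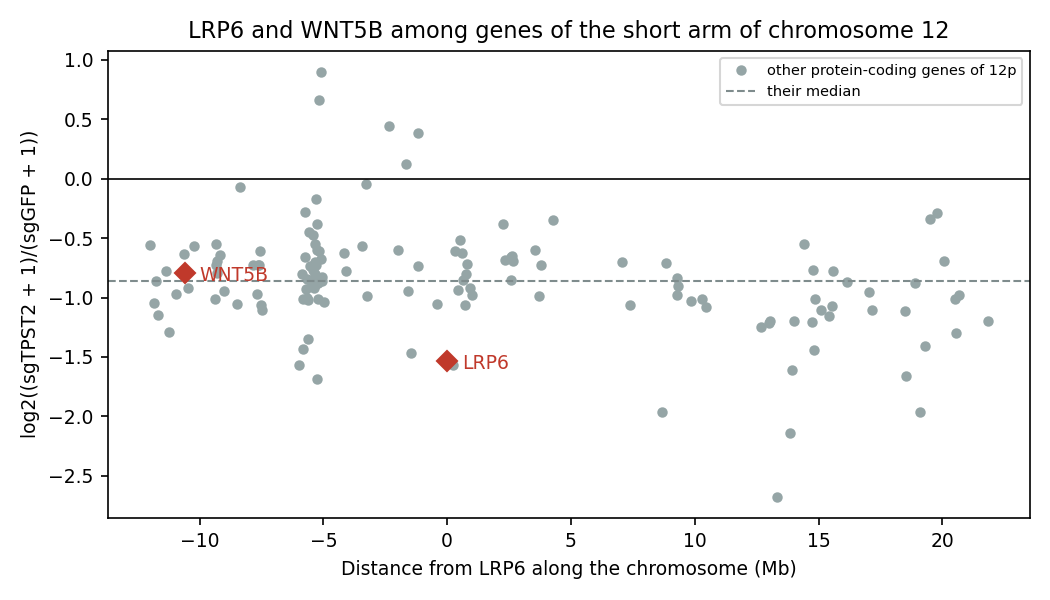
Log2 difference of protein-coding genes of 12p at 1 FPKM or more against their distance from LRP6 in Mb; grey points are the 138 other genes, the dashed line is their median (-0.86), and red diamonds are LRP6 and WNT5B. Nearly the whole arm lies below 0, with WNT5B close to the median line and LRP6 below it.

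The nearest genes with a mean of at least 5 FPKM on either side of LRP6 and WNT5B had ratios under the arm's median of 0.519. FBXL14, inside WNT5B and under that mean, had a ratio of 0.585. The nearest expressed genes on either side of WNT5B were ERC1, at 4.80 FPKM in sgTPST2 and 10.3 FPKM in sgGFP, and ADIPOR2, at 11.7 FPKM in sgTPST2 and 23.0 FPKM in sgGFP. Beside LRP6, YBX3 stood at 66.6 FPKM in sgTPST2 and 186 FPKM in sgGFP, and CREBL2 at 6.52 FPKM in sgTPST2 and 13.4 FPKM in sgGFP. BORCS5, named after its values were seen, lies 0.222 Mb from LRP6 between the gene centres. It was at 1.36 FPKM in sgTPST2 and 5.97 FPKM in sgGFP, a ratio of 0.227 close to that of LRP6. ETV6 and DUSP16, which also lie nearer to LRP6 than CREBL2 does, had higher ratios of 0.310 and 0.453. Both passed 1 FPKM only through sgGFP. Of the 21 expressed genes within 5 Mb of LRP6 (mean of at least 5 FPKM, which neither BORCS5 nor LRP6 itself reaches), 0 had a difference as low.

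APC and AXIN2 belong to the destruction complex, and their levels in the libraries lay within counting error of each other. APC (ENSG00000134982.16, chromosome 5, 112707498 to 112846239), the large scaffold that is mutated in most colorectal cancers, stood at 9.11 FPKM (8.28 to 10.01) in sgTPST2 and 9.16 FPKM (8.27 to 10.1) in sgGFP. The ratio of 0.994 had an interval of 0.865 to 1.14. AXIN2 (ENSG00000168646.12, chromosome 17, 65528563 to 65561647), a scaffold and a widely used readout of beta-catenin activity, was barely detected. It stood at 0.180 FPKM (0.0860 to 0.357) in sgTPST2 and 0.148 FPKM (0.0524 to 0.311) in sgGFP, 9 and 6 fragments per kb. Its ratio of 1.21 had an interval of 0.419 to 4.50, and the authors did not test it. The related scaffold AXIN1 is among the 22 genes of the Dishevelled and destruction complex list, of which 20 passed the filter and 0 were 1.5-fold apart (median -0.02). NKD2, a feedback inhibitor that binds Dishevelled, was at 2.38 FPKM in sgTPST2 and 3.68 FPKM in sgGFP, and passed 1.5-fold with a pseudocount of 0.1. The kinase gene CSNK1A1 was the most abundant of them, at 213 FPKM in sgTPST2 and 219 FPKM in sgGFP, followed by CSNK1E at 71.8 and 82.1 FPKM and CSNK1G2 at 63.7 and 64.5 FPKM in the same order.

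CTNNB1 (ENSG00000168036.17, chromosome 3, 41194741 to 41260096), which encodes beta-catenin, was the most abundant of the 10 genes by far. It stood at 134 FPKM (131 to 137) in sgTPST2 and 148 FPKM (144 to 152) in sgGFP. The intervals are narrow because the counts are high, and they did not overlap, but the ratio of 0.905 (0.874 to 0.938) is a small difference with no replicate spread to set it against. Its log2 difference was -0.14, and 3794 of the 13420 genes had a difference as low or lower. ULK4, which overlaps its end on the opposite strand, was at 4.11 FPKM in sgTPST2 and 4.45 FPKM in sgGFP. The RNA level says nothing of beta-catenin protein, which is set mainly by its destruction.

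The TCF factors were low. TCF7L2 (ENSG00000148737.16, chromosome 10, 112950250 to 113167678), the main partner of beta-catenin in gut epithelium, stood at 1.17 FPKM (0.884 to 1.52) in sgTPST2 and 0.926 FPKM (0.660 to 1.27) in sgGFP. The ratio of 1.27 had an interval of 0.823 to 1.95. An antisense gene at its start, AL158212.2, was at 0.945 FPKM in sgTPST2 and listed at 0 in sgGFP. Whether its reads entered the TCF7L2 value was not tested. TCF7L1 (ENSG00000152284.4, chromosome 2, 85133410 to 85310388), a factor that mostly represses targets, stood at 0.636 FPKM (0.423 to 0.895) in sgTPST2 and 0.240 FPKM (0.114 to 0.438) in sgGFP. Its ratio of 2.65 (1.25 to 6.04) lay above 1, whereas the intervals of the levels just overlapped and both lay under 1 FPKM. It was the only member with a ratio interval wholly above 1.

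Among the other nuclear genes of the pathway, the clearest difference was in TLE1, a Groucho co-repressor that TCF factors recruit when beta-catenin is absent. It stood at 24.1 FPKM (22.7 to 25.5) in sgTPST2 and 8.75 FPKM (7.89 to 9.70) in sgGFP, a log2 difference of 1.36, and the authors' deposited table gives p = 0.00710 and q = 0.513. The factor TCF7 was lower, at 1.49 FPKM (1.16 to 1.87) in sgTPST2 and 2.86 FPKM (2.37 to 3.42) in sgGFP. With these, the 4 TCF and LEF genes summed to 3.65 FPKM in sgTPST2 and 4.48 FPKM in sgGFP. Of 18 genes of beta-catenin, TCF/LEF factors and co-factors, 15 passed the filter, with 1 higher and 1 lower (median 0.02). The co-repressors CTBP1, at 61.1 FPKM in sgTPST2 and 60.1 FPKM in sgGFP, and CTBP2, at 62.2 and 53.9 FPKM in the same order, were within 1.5-fold.

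Target genes were mostly under 1 FPKM, and most of those above it were lower in sgTPST2. Of 23 beta-catenin target genes 7 passed the filter, and of these 7 (median -0.39) a 1.5-fold lower level was found in 3, beside 6.94% of all genes, and a higher one in 0. In 6 of the 7 the level was lower in sgTPST2 with intervals that did not overlap. In abundant genes such intervals separate at small differences, and the same share over all genes was not counted. The 3 genes at least 1.5-fold lower were DKK1 and TCF7, given above, and EPHB2, a receptor kinase of intestinal progenitors. EPHB2 was at 0.992 FPKM in sgTPST2 and 2.40 FPKM in sgGFP, and passed the filter only through sgGFP. ZNRF3, a ubiquitin ligase that removes Frizzled receptors from the cell surface, was within 1.5-fold, at 2.92 FPKM (2.46 to 3.45) in sgTPST2 and 4.12 FPKM (3.53 to 4.78) in sgGFP. The most abundant targets were also within 1.5-fold, with the adhesion receptor CD44 at 259 FPKM in sgTPST2 and 316 FPKM in sgGFP, and MYC at 114 and 130 FPKM in the same order. The cyclin gene CCND1, at 53.0 FPKM in sgTPST2 and 52.7 FPKM in sgGFP, was the target with overlapping intervals. Other feedback targets, namely AXIN2, LGR5, RNF43, NKD1, SP5, LEF1 and NOTUM, stayed under 1 FPKM in both libraries.

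**Figure D3:**
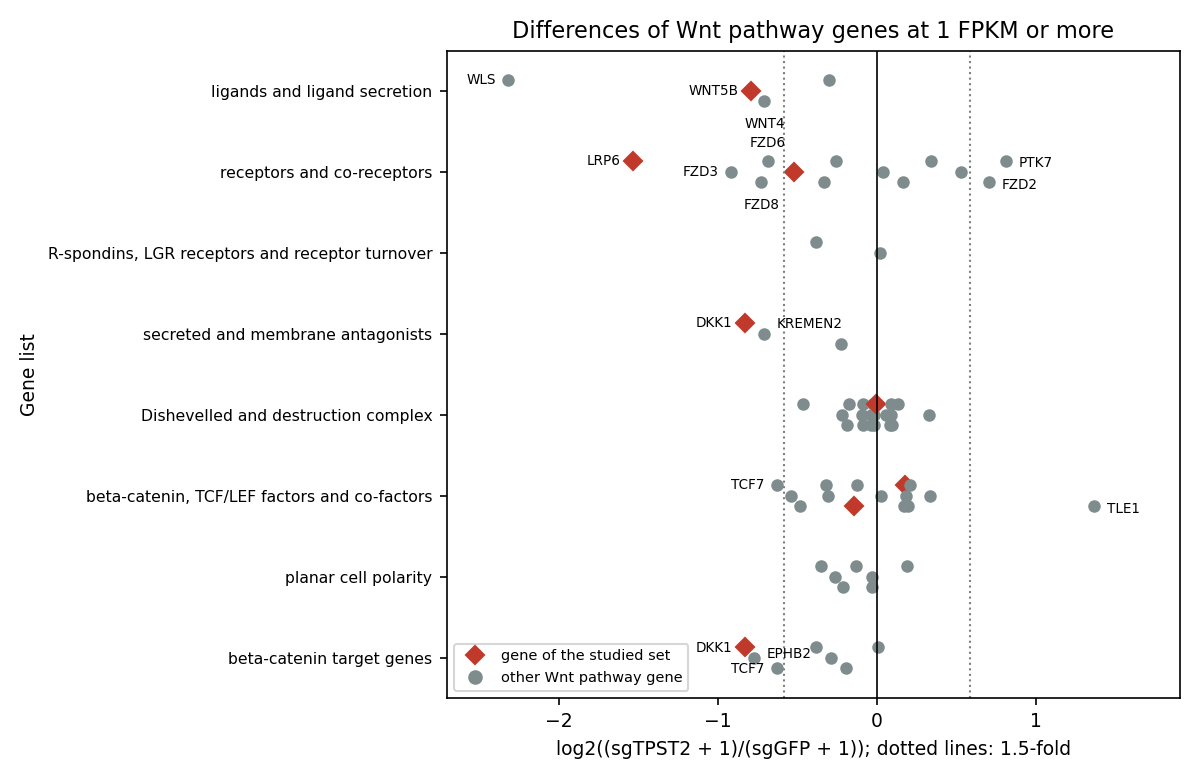
Log2 difference of each Wnt pathway gene at 1 FPKM or more, by list; red diamonds are genes of the 10, grey points are other pathway genes, dotted lines mark 1.5-fold, and genes past them are named. WLS and LRP6 lie farthest to the left and TLE1 farthest to the right, while all 20 genes of the Dishevelled and destruction complex lie between the lines.

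Over the whole pathway, 127 genes were listed and 68 passed the filter, with 11 at least 1.5-fold lower and 3 higher and a median of -0.09, beside 6.94% lower, 4.41% higher and a median of 0.00 over all genes. Without the 10 genes, 61 passed, with 8 lower and 3 higher. By list, of 13 receptors and co-receptors past the filter 4 were lower and 2 higher, of 4 ligand and secretion genes 3 were lower, and of 3 secreted and membrane antagonists 2 were lower. Among the lower ligand and secretion genes, WNT5B and WNT4 passed the filter only through sgGFP. The counts of the nuclear and target lists are given above. None of 7 planar cell polarity genes and neither of the 2 genes of the R-spondin and receptor turnover list past the filter, LGR4 and ZNRF3, was 1.5-fold apart. The lists were not tested against each other.

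The position of the other genes was examined in the same way as that of LRP6 and WNT5B. DKK1 went against its surroundings. The 9 expressed genes within 5 Mb of it had a median of 0.23 and a lowest difference of -0.44, above the -0.83 of DKK1, and its nearest expressed neighbours CSTF2T and ZWINT had differences of 0.28 and 0.36. LRP5 was lower than most of its neighbours, with 6 of 124 as low or lower and a median of 0.00. For APC, CTNNB1 and TCF7L2 the neighbours' medians were 0.13, -0.04 and 0.15, and the gene's own difference lay inside the neighbours' range. TCF7L1 stood at 0.40 beside a median of 0.01 over 24 neighbours, 21 of which were as low or lower. AXIN2 and DKK3, both near 0 in level, cannot show a difference on this scale.

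**Figure D4:**
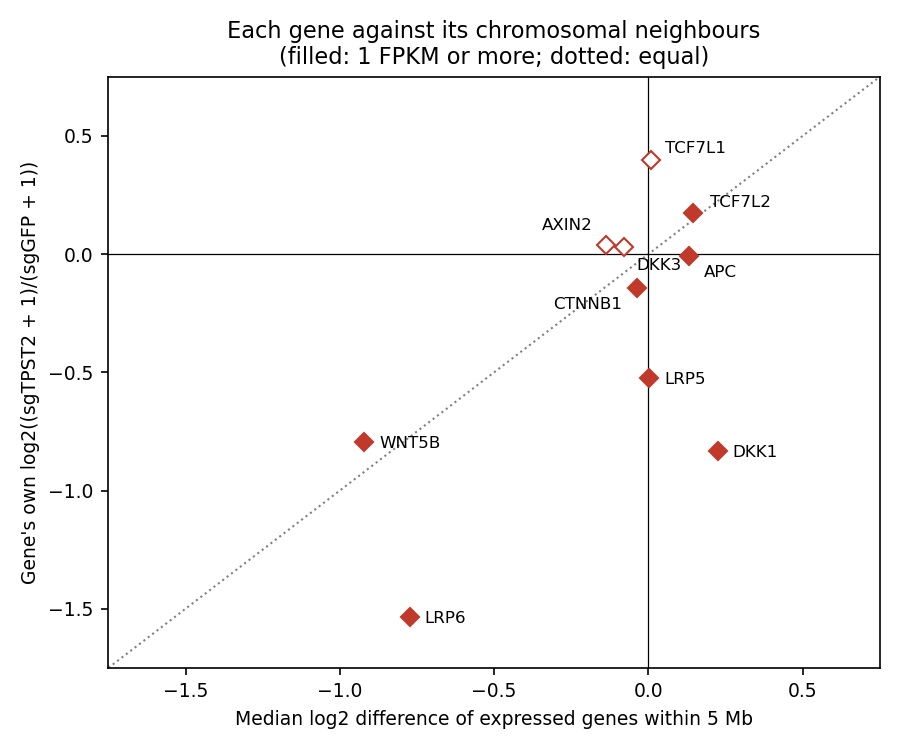
Each gene's own log2 difference against the median difference of protein-coding genes within 5 Mb whose mean is at least 5 FPKM; filled diamonds are genes at 1 FPKM or more, open ones lie below, and the dotted line marks equal values. LRP6 and WNT5B lie to the left, where neighbours were lower too, whereas DKK1 at -0.83 lies far under neighbours with a median of 0.23.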

How the data were processed

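Total RNA of MIA PaCa-2 cells was sequenced after stranded library preparation, per the labels' protocols, with 1 library each for sgTPST2 and sgGFP. STAR and Cuffdiff with hg38 are named per the submitters' processing notes. The sources used here give no version, annotation or strand setting. Beside 1 value per gene and library, the deposited table holds a log2 fold change, p-value, q-value and test statistic (a score, not used), per the file headers. No unit is named there, so values were read as FPKM, the unit of Cuffdiff, which stays an assumption, and the authors' scaling was kept. The authors' log2 fold change equals log2 of the values plus 1 to within 2.1e-15. Column sums were 1.00e+06 in sgTPST2 and 1.01e+06 in sgGFP.

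Identifiers of all 58698 genes matched GENCODE release 29 (GRCh38), which gave coordinates. Depth was fitted as the step that brings low values of genes with 1 transcript over 1500 bp closest to whole fragments. Of 771 low values in sgTPST2 and 826 in sgGFP, 93.4% and 92.4% lay within 0.1 of a whole number, where evenly spread values would give 20%; the step was fitted on the same values. On counts simulated from the sgGFP levels of 2467 such genes at 40 and 50 fragments per FPKM and kb, the fit returned 40 and 50. Genes entered counts at 1 FPKM or more in the higher library, with a pseudocount of 1. The members, the 8 gene lists and the fold of 1.5 were chosen with earlier results of these data known. Named genes were the 10 members, TPST2, listed genes 1.5-fold apart, the 3 most abundant of each list and the nearest expressed neighbours; others were named as context after their values were seen. Python 3.11.15, pandas 2.3.3 and scipy 1.17.1 were used.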

Additional observations from a re-analysis of the deposited data

How the results depend on the processing

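No paired analysis was possible because each group is a single library, which also precludes leaving out a replicate. Neither an equal upper quartile nor centring on the median gene changed a count. With a pseudocount of 0.1, 5 pathway genes were at least 1.5-fold higher in place of 3 and 14 lower in place of 11, NKD2 and PYGO1 among the 14, and LRP5 joined DKK1, LRP6 and WNT5B among lower members. A smaller pseudocount enlarges the differences of all low genes, and the shares over all genes at 0.1 were not counted. At 5 FPKM or more, 5 of 44 pathway genes were lower in place of 11 of 68. The shares over all genes at that filter were not counted either. Without a filter the median of the members was -0.075 in place of -0.52, since AXIN2, DKK3 and TCF7L1 entered. Without 12p genes 1 member was lower, and the median was -0.14. Less the arm's median, LRP6 stood at -0.68 and WNT5B at 0.067, which turned the sign of WNT5B. That holds on the log2(FPKM + 1) scale, whereas the plain ratio of WNT5B, 0.157, lay under the arm's median ratio of 0.519. Depth limits AXIN2, DKK3 and WNT5B most.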
